A study of Oryza sativa Japonica Group with 8 samples.

Results

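The genes described here are 5 rice loci of the heat shock response that were lower in young panicles of a dcl3b knockdown mutant than in wild type. They are LOC_Os03g53340, which encodes a protein with an HSF-type DNA-binding domain, the small heat shock protein genes LOC_Os01g08860 and LOC_Os02g52150, and the DnaJ genes LOC_Os12g44260 and LOC_Os06g09560. They were taken by locus ID from the 1174 genes that the authors listed as changed, of which 530 were listed as lower and 644 as higher in the knockdown, and all 5 stood in the lower list. Messenger RNA was sequenced in 3 dcl3b knockdown libraries and 3 wild type libraries, and small RNA in 1 knockdown and 1 wild type library. All plants were japonica rice grown in a paddy field, and panicles were sampled before heading. The labels do not say how the knockdown was made, how many lines it represents, or whether libraries came from separate plants, so spreads and p-values describe these libraries and may be technical. Levels are FPKM, fragments scaled by transcript length and library size, which allows levels of different genes to be compared per length. Read counts were not used here, so the sequencing depth behind the mRNA values is unknown.

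Heat shock factors (HSFs) are transcription factors that bind heat shock elements in promoters and switch on chaperone genes when proteins unfold. Small heat shock proteins, the HSP20 or alpha-crystallin family, hold unfolding proteins in a soluble state without using ATP. DnaJ proteins, also called HSP40, deliver clients to DnaK (HSP70) chaperones and stimulate their ATPase. In plants, parts of this system are also expressed without heat during pollen and seed development.

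The knockdown target is the Dicer gene LOC_Os10g34430. It stood at 0.39, 0.50 and 0.44 FPKM in the knockdown libraries, against 0.97, 0.98 and 0.88 FPKM in wild type. A 500-base window within that gene held 17550 RPTM of 21-nt small RNA in the knockdown library, against 6.22 RPTM in wild type (RPTM is taken as reads per 10000000 library reads). Of 24-nt small RNA the same window held 7417 RPTM in the knockdown library, against 4.98 RPTM in wild type. Of 12 anther and tapetum marker genes, 10 were among the listed genes, all 10 as lower, where 45.1% of all listed genes were lower. Their summed level was 538, 1174 and 765 FPKM in the knockdown libraries, against 1806, 2048 and 1852 FPKM in wild type, so knockdown replicate 2 stood nearest to wild type.

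The heat shock factor gene had the deepest fall of the 5 by the ratio of means and with a pseudocount of 0.1 FPKM. On the log2(FPKM + 0.5) scale, which damps low levels, it fell by 1.66, against 1.69 for LOC_Os01g08860 and 1.68 for LOC_Os02g52150, so it no longer came first. LOC_Os03g53340 stood at 0.12, 0.04 and 0.30 FPKM in the knockdown libraries, against 1.80, 1.03 and 1.90 FPKM in wild type. The knockdown mean of 0.153 ± 0.133 FPKM was 9.73% of the wild type mean of 1.58 ± 0.476 FPKM (SD, n = 3 each). Every knockdown library lay below every wild type library, and even the closest pair, wild type replicate 2 over knockdown replicate 3, differed by a ratio of 3.43. In the authors' deposited table its log2 change, knockdown over wild type, was -3.43 (adjusted p = 1.53e-11), which was the fall ranked 13 among the 530 genes listed as lower. At 0.04 FPKM the lowest library is 4 units of the last deposited decimal, so the ratio of the means is less certain than the absence of overlap. In bulk panicles, fewer cells that express a gene and less RNA per cell cannot be told apart, here and for the genes that follow.

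Of the 5 genes, the HSP20 gene LOC_Os01g08860 had the highest level in every library. It stood at 14.3, 15.6 and 22.8 FPKM in the knockdown libraries, against 69.8, 41.9 and 61.4 FPKM in wild type. Its mean was 17.5 ± 4.61 FPKM in the knockdown and 57.7 ± 14.3 FPKM in wild type (SD, n = 3 each), so 30.4% of the wild type mean was left, the largest remainder of the 5. The groups did not overlap, with a ratio of 1.83 between wild type replicate 2 and knockdown replicate 3, the narrowest gap of the 5. The log2 change was -1.72 in the authors' deposited table (adjusted p = 8.11e-14). By adjusted p the gene ranked 15 among the genes listed as lower, whereas by size of fall it ranked 162.

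LOC_Os02g52150, described as a mitochondrial heat shock 22 kDa protein, is a small heat shock protein of the organelle. It stood at 2.05, 1.32 and 1.82 FPKM in the knockdown libraries, against 8.10, 4.42 and 7.92 FPKM in wild type. Its means were 1.73 ± 0.373 FPKM in the knockdown and 6.81 ± 2.07 FPKM in wild type (SD, n = 3 each), which left 25.4%. Replicate 2 was the lowest library in each genotype, and still no knockdown library reached wild type. For this gene the authors' deposited table held a log2 change of -1.97 (adjusted p = 2.77e-11).

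The DnaJ genes were expressed at lower levels, near 1 FPKM in wild type. LOC_Os12g44260 stood at 0.11, 0.24 and 0.24 FPKM in the knockdown libraries, against 0.78, 0.77 and 1.29 FPKM in wild type. Its means were 0.197 ± 0.0751 FPKM in the knockdown and 0.947 ± 0.297 FPKM in wild type, or 20.8% left (SD, n = 3 each). Wild type replicate 3 was well above the other wild type libraries, which were almost equal. A log2 change of -2.25 was given by the authors' deposited table (adjusted p = 0.00326, the highest of the 5).

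LOC_Os06g09560, the other DnaJ gene, stood at 0.26, 0.15 and 0.46 FPKM in the knockdown libraries, against 1.32, 1.04 and 1.16 FPKM in wild type. Its means were 0.290 ± 0.157 FPKM in the knockdown and 1.17 ± 0.140 FPKM in wild type, or 24.7% left (SD, n = 3 each). The wild type libraries were close together, while the knockdown libraries spread by more than the wild type ones relative to their mean, with a coefficient of variation of 54.2% in the knockdown and 12.0% in wild type. Its log2 change was -2.05 in the authors' deposited table (adjusted p = 1.34e-06).

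**Figure D1:**
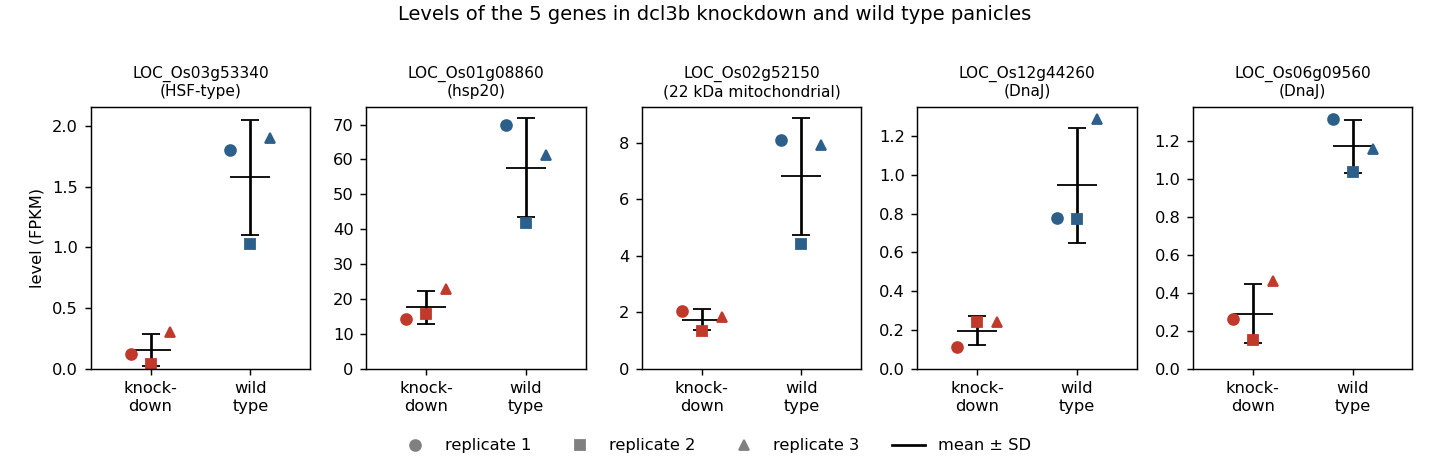
Level in FPKM (y axis, from 0, with its own scale for each gene) of the 5 genes in the dcl3b knockdown (red, left) and wild type (blue, right). Symbols are the replicate libraries and bars show the mean ± SD of 3 libraries. In each gene all knockdown libraries lie below all wild type libraries, and wild type replicate 2 (square) is the lowest of wild type.

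The values above are a description and not a test, because the genes were picked from lists made on the same contrast. Every one of the 1174 genes had been listed for passing the authors' limits, and 45.1% were listed as lower. The smallest listed fall was a log2 change of -1.001 for LOC_Os04g49920 in the authors' deposited table, and genes outside these limits were not analysed here. All 5 genes had no overlap between genotypes, as had 89.1% of the genes listed as lower, so that count does not set them apart. A log2 change of -2 or less stood in the authors' deposited table for 3 of the 5 genes and 17.0% of the genes listed as lower, while all 5 and 61.9% of the genes listed as lower had an adjusted p of 0.01 or less. Taken from the authors' deposited table, the median log2 change was -2.05 over the 5 genes and -1.44 over all 530 genes listed as lower. The 3 genes at -2 or less were those with the lowest means, LOC_Os03g53340, LOC_Os12g44260 and LOC_Os06g09560. On the log2(FPKM + 0.5) scale their differences were -1.66, -1.04 and -1.10, so the depth of these falls depends on values at low levels.

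The 5 genes differed widely in level. In the knockdown the order of the means was LOC_Os01g08860, LOC_Os02g52150, LOC_Os06g09560, LOC_Os12g44260 and LOC_Os03g53340, from high to low. In wild type the heat shock factor gene came ahead of LOC_Os06g09560 and LOC_Os12g44260. The first and second places were separated from the next gene in every library of both genotypes. The lower 3 genes overlapped with their neighbours in each genotype, from 0.04 to 0.46 FPKM in the knockdown and from 0.77 to 1.90 FPKM in wild type, so the spread between libraries did not separate their levels. Within single libraries, LOC_Os03g53340 was above LOC_Os12g44260 in 3 of 3 wild type libraries and below LOC_Os06g09560 in 3 of 3 knockdown libraries. LOC_Os01g08860 was also high among the genes listed as lower, of which 39 had a higher wild type mean, while 279 had a higher wild type mean than LOC_Os03g53340.

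**Figure D2:**
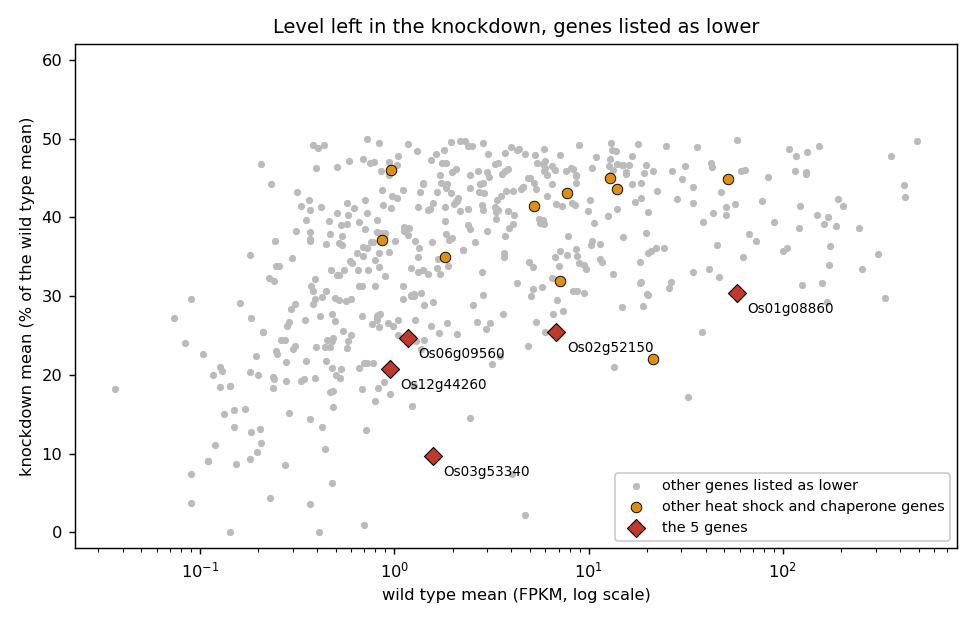
Knockdown mean as a percentage of the wild type mean (y axis) against the wild type mean in FPKM (x axis, log scale) for the 530 genes listed as lower. Diamonds are the 5 genes, which lie between 9.73% and 30.4%, circles are 10 further heat shock and chaperone genes between 21.97% and 46.0%, and grey points are the remaining genes.

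Other genes of the heat shock and chaperone system were looked up by locus ID and by description. Together with the 5 genes, already known to be lower, this gave 15 listed genes, none of them listed as higher. The other 10 were all listed as lower, where 45.1% of all listed genes were lower. The words and loci searched for were chosen with earlier results of these data known. All 15 had no overlap between genotypes, beside 89.1% of the genes listed as lower. By the authors' deposited table their median log2 change was -1.52, and -1.24 over the 10 genes other than the 5, beside -1.44 over all genes listed as lower.

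Of 25 heat shock factor loci, 3 were listed and 22 were not listed as changed. LOC_Os03g53340 was taken from the lower list, and the other 2 were listed as lower too, where 45.1% of all listed genes were lower. The share of all rice genes that was listed is unknown here. This count of listed loci, and those for the families below, therefore cannot be weighed against it. By the log2 change in the authors' deposited table, the other HSF genes fell less far than LOC_Os03g53340. On the log2(FPKM + 0.5) scale the differences were -1.66 for LOC_Os03g53340, -1.44 for LOC_Os09g35790 and -1.04 for LOC_Os08g43334. The gap to LOC_Os09g35790 was thus small on that scale. LOC_Os09g35790 stood at 2.20, 2.17 and 2.42 FPKM in the knockdown libraries, against 8.48, 5.81 and 6.98 FPKM in wild type, and had a log2 change of -1.65 in the authors' deposited table. LOC_Os08g43334 stood at 0.48, 0.58 and 0.85 FPKM in the knockdown libraries, against 2.09, 1.53 and 1.85 FPKM in wild type, and had a log2 change of -1.52 in the authors' deposited table. Summed over the 3 HSF genes the level was 3.05 ± 0.447 FPKM in the knockdown and 10.5 ± 2.01 FPKM in wild type (SD, n = 3 each), and LOC_Os09g35790 made up most of it in each genotype.

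Of 21 small heat shock protein loci, 3 were listed. The pair described above was taken from the lower list, so its direction was fixed beforehand. The remaining gene, the HSP20 gene LOC_Os03g16020, was also listed as lower, where 45.1% of all listed genes were lower. It stood at 7.03, 3.16 and 8.09 FPKM in the knockdown libraries, against 18.1, 11.2 and 12.7 FPKM in wild type. Knockdown replicate 2 was the lowest library here, at -1.14 on the log2(FPKM + 0.5) scale relative to the mean of knockdown replicates 1 and 3, the most negative such difference of LOC_Os03g16020 and the other genes listed as lower. The summed level of the 3 genes was 25.4 ± 6.59 FPKM in the knockdown and 78.5 ± 19.5 FPKM in wild type (SD, n = 3 each). LOC_Os01g08860 supplied 61.1%, 77.6% and 69.7% of that sum in the knockdown libraries, against 72.7%, 72.9% and 74.9% in wild type, so its share did not move in one direction. HSP20 genes form a family with similar sequences, and the sources used here do not give how reads with several matches were counted.

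Of 15 loci for HSP70, HSP90 and HSP101 proteins, the large ATP-dependent chaperones, 1 was listed. This was LOC_Os04g01740, described as a heat shock protein, with a mean of 0.440 ± 0.123 FPKM in the knockdown and 0.957 ± 0.0577 FPKM in wild type (SD, n = 3 each). The DnaK family gene LOC_Os12g05760, found by its description, averaged 2.18 ± 0.964 FPKM in the knockdown and 5.25 ± 0.847 FPKM in wild type. LOC_Os02g04650, described as an activator of the HSP90 ATPase, averaged 5.77 ± 0.313 FPKM in the knockdown and 12.8 ± 1.55 FPKM in wild type. LOC_Os06g06490, a heat shock protein with a U-box, a domain found in ubiquitin ligases, averaged 3.32 ± 0.187 FPKM in the knockdown and 7.71 ± 1.44 FPKM in wild type. The locus IDs searched for came from general knowledge, so an incorrect one would be counted here as not listed.

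By words for other chaperones and folding enzymes, 3 further listed genes were found, all listed as lower. The peptidyl-prolyl isomerase gene LOC_Os04g28420, of a class that rotates the peptide bond before proline, stood at 4.16, 4.39 and 5.62 FPKM in the knockdown libraries, against 21.9, 20.5 and 22.2 FPKM in wild type. Its libraries were tight in wild type, and its log2 change was -2.19 in the authors' deposited table (adjusted p = 2.53e-48), ranked 2 by adjusted p among the genes listed as lower. The FKBP-type isomerase gene LOC_Os09g01670 averaged 0.320 ± 0.144 FPKM in the knockdown and 0.863 ± 0.119 FPKM in wild type (SD, n = 3 each). The calreticulin gene LOC_Os03g61670, for a calcium-binding chaperone of the endoplasmic reticulum, stood at 16.9, 35.1 and 18.1 FPKM in the knockdown libraries, against 56.5, 43.9 and 56.3 FPKM in wild type. Its knockdown replicate 2 was close to wild type replicate 2.

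**Figure D3:**
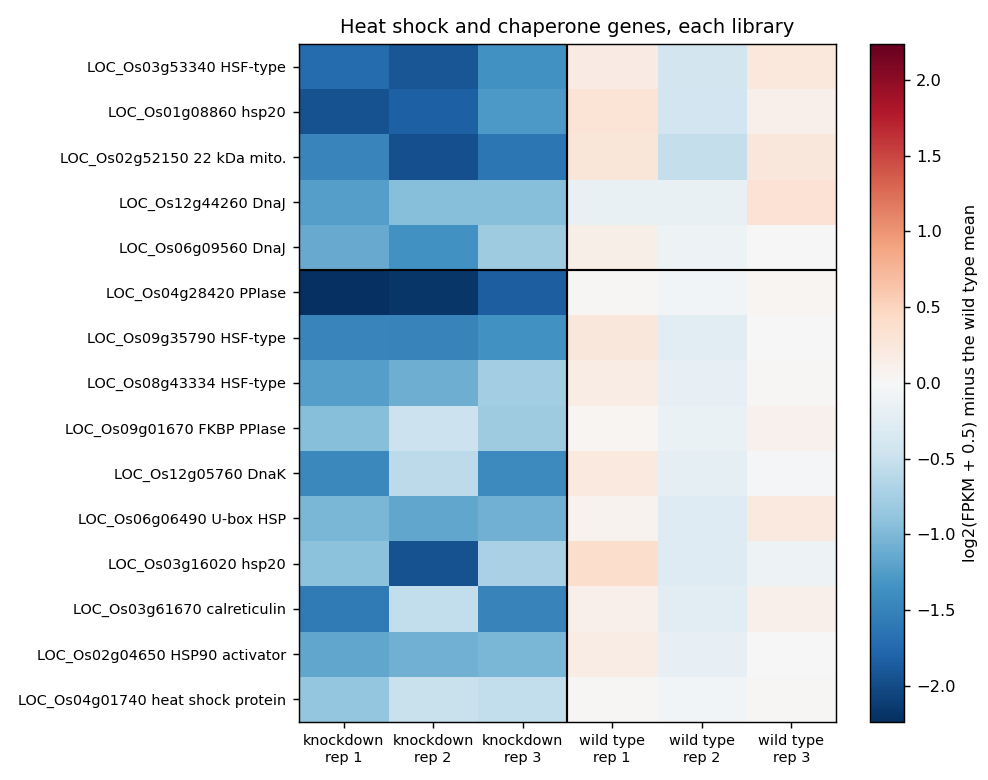
Level of the 15 heat shock and chaperone genes (rows, the 5 genes above the line) in each library (columns, knockdown left of wild type), as log2(FPKM + 0.5) minus the wild type mean of the gene. Blue is lower and red higher than the wild type mean. Every knockdown cell is blue, and within wild type replicate 2 is the lowest column in all 15 rows.

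Genes described as stress proteins outside the chaperones were found in both directions. Of 9 listed genes found by words for universal stress proteins, glutathione S-transferases, late embryogenesis abundant proteins and antioxidant enzymes, 7 were listed as higher and 2 as lower, where 54.9% of all listed genes were higher. The glutathione S-transferase gene LOC_Os10g38140, of a family of detoxifying enzymes, rose, at 43.5, 25.5 and 48.6 FPKM in the knockdown libraries, against 5.62, 8.53 and 3.92 FPKM in wild type. The universal stress protein gene LOC_Os01g19820 rose as well, at 30.5 ± 5.71 FPKM in the knockdown and 6.52 ± 1.58 FPKM in wild type (SD, n = 3 each). Members of the same families fell. The universal stress protein gene LOC_Os03g40130 averaged 0.277 ± 0.117 FPKM in the knockdown and 1.13 ± 0.460 FPKM in wild type, and the glutathione S-transferase gene LOC_Os03g04250 averaged 1.68 ± 1.09 FPKM in the knockdown and 6.62 ± 3.54 FPKM in wild type, where its groups overlapped. The late embryogenesis abundant protein gene LOC_Os07g17120 was at 0.56, 0.21 and 0.39 FPKM in the knockdown libraries, against 0.09 FPKM in wild type replicate 2 and a listed 0 in the other wild type libraries. Another gene of that class, LOC_Os01g21250, had 1 knockdown library far above the rest, with 28.5, 2.5 and 3.21 FPKM in the knockdown, against 3.10, 1.47 and 0.86 FPKM in wild type.

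The libraries within a genotype were compared next, again as a description. Wild type replicate 2 was the lowest wild type library in all 5 genes and in all 15 heat shock and chaperone genes, beside 54.9% of the genes listed as lower. In LOC_Os12g44260 this rests on the last deposited decimal, with 0.77 FPKM in wild type replicate 2 and 0.78 FPKM in wild type replicate 1. Knockdown replicate 2 was the highest knockdown library in 67.2% of the genes listed as lower, but in none of the 5 genes, with a tie with replicate 3 in LOC_Os12g44260. It was the lowest knockdown library in 3 of the 5 genes, beside 11.1% of the genes listed as lower. On the log2(FPKM + 0.5) scale, knockdown replicate 2 differed from the mean of knockdown replicates 1 and 3 by a median of -0.38 over the 5 genes and 0.25 over all genes listed as lower.

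The anther and tapetum markers were on the other side of that median. Knockdown replicate 2 was the highest knockdown library in all 10 of them, with a median difference of 0.86 on the same scale. Among the 15 heat shock and chaperone genes it was the highest in 4, namely LOC_Os03g61670, LOC_Os12g05760, LOC_Os09g01670 and LOC_Os04g01740, and the lowest in 6. The part of anther content in the lower level of the 5 genes was not tested. Without knockdown replicate 2 the knockdown mean was 13.3% of wild type for LOC_Os03g53340, 32.2% for LOC_Os01g08860, 28.4% for LOC_Os02g52150, 18.5% for LOC_Os12g44260 and 30.7% for LOC_Os06g09560. Without wild type replicate 2 the shares, in the same order of genes, were 8.29%, 26.8%, 21.6%, 19.0% and 23.4%. For LOC_Os03g53340, leaving out knockdown replicate 3 gave the lowest share, 5.07%.

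**Figure D4:**
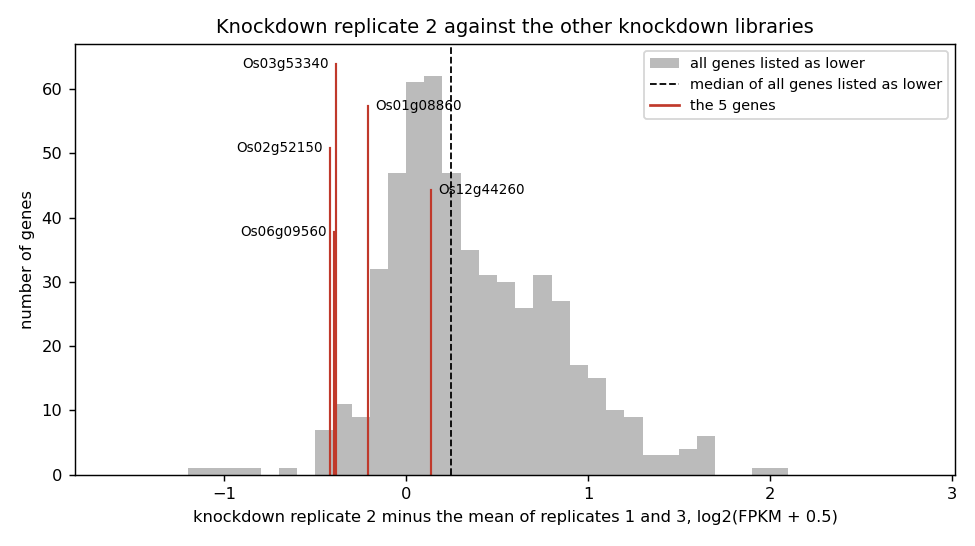
Histogram of the difference between knockdown replicate 2 and the mean of knockdown replicates 1 and 3, on the log2(FPKM + 0.5) scale (x axis), with the number of genes (y axis), for the 530 genes listed as lower. Red lines mark the 5 genes and the dashed line the median of 0.25. In 4 of the 5 genes replicate 2 lay below the other knockdown libraries on average, beside 109 of the 530 genes. LOC_Os12g44260 lay between 0 and the median. The genes share these libraries, so they are not independent instances.

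How alike the 5 genes varied was described by Pearson's correlation of their deviations from the genotype means, over 6 libraries and on the log2(FPKM + 0.5) scale. These deviations share libraries and hold few independent values, so no p is given. LOC_Os03g53340 and LOC_Os01g08860 were the most alike pair, at 0.91, and LOC_Os03g53340 stood at 0.85 with LOC_Os02g52150 and at 0.81 with LOC_Os06g09560. LOC_Os12g44260 followed the others least, at 0.45 with LOC_Os03g53340 and 0.04 with the other DnaJ gene. The DnaJ pair thus varied largely apart in these libraries, though both genes were low, at 0.11 to 0.46 FPKM in the knockdown.

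Partners were sought among the 543 listed genes with a mean of at least 1 FPKM. LOC_Os06g39240, described as endothelial differentiation-related factor 1, the name of a transcriptional coactivator in human, was closest to LOC_Os03g53340, at 0.96, and second for LOC_Os01g08860, at 0.99. Its level was 7.16, 7.28 and 10.8 FPKM in the knockdown libraries, against 31.8, 18.3 and 29.4 FPKM in wild type. The gene closest to LOC_Os01g08860 was LOC_Os08g40910, an expressed protein with no further description, at 0.99. For LOC_Os02g52150 it was the cytochrome P450 gene LOC_Os02g36070, at 0.96, and for LOC_Os12g44260 and LOC_Os06g09560 the closest genes, LOC_Os10g19910 at 0.96 and LOC_Os11g05520 at 0.97, were listed as higher. These choices depended on single libraries: of 15 member and partner pairs, 2 to 6 were chosen again when a library was left out, and LOC_Os06g39240 was chosen again for LOC_Os03g53340 in 1 of 6 such fits and for LOC_Os01g08860 in 3 of 6.

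In the small RNA tables, none of the 124 windows listed as changed named any of the 5 genes or of the 15 heat shock and chaperone genes. Windows outside those tables were not analysed here. A pair of 24-nt windows carried a chaperone description. The window at LOC_Os02g02090, a peptidyl-prolyl cis-trans isomerase gene, held 12.2 RPTM in the knockdown library, against 138 RPTM in wild type. The window at LOC_Os05g43170, a calreticulin gene, held 17.7 RPTM in the knockdown library, against 90.8 RPTM in wild type. Each window also named another gene, LOC_Os02g02080 and LOC_Os05g43174, both described only as an expressed protein. Which gene of a window the small RNA belongs to is not given. With 1 small RNA library per genotype these differences have no replicate check. How many of the 113 listed 24-nt windows were lower was not counted here, so the direction of this pair does not set chaperone genes apart. Neither LOC_Os02g02090 nor LOC_Os05g43170 was among the listed mRNA genes.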

How the data were processed

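The submitters' processing notes name edgeR, TopHat2 2.1.0 and Bowtie 1.1.2 without saying what each did. For genome build, annotation release and filters, nothing is given in the sources used here. What the authors deposited is FPKM per library, rounded to 2 decimals, for genes they called changed, with a log2 fold change and with raw and adjusted p-values. The log base was checked: over 369 genes above 1 FPKM in both genotypes, deposited and recomputed log2 ratios differed by at most 0.0326. The small RNA tables deposited by the authors give a signal per window in RPTM. Their fold ratio and p-values were not used.

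Samples were grouped by title. Means, SDs and differences of log2(FPKM + 0.5) were computed in Python 3.11.15 with pandas 2.3.3. No test was made, since only genes already called were held. The members and lists were chosen with earlier results of these data known. Besides the 5 genes, those named were the targeted gene, all listed chaperone genes, 4 stress genes with the largest fold change and the closest partners by correlation. LOC_Os04g49920, LOC_Os03g40130, LOC_Os03g04250 and both chaperone windows were named after their values were seen. None of the 5 locus IDs matched the gene table (0 matches), so no sequences are shown.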

Additional observations from a re-analysis of the deposited data

How the results depend on the processing

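With a pseudocount of 0.5 FPKM the log2 difference, knockdown minus wild type, was -1.66 for LOC_Os03g53340, -1.69 for LOC_Os01g08860, -1.68 for LOC_Os02g52150, -1.04 for LOC_Os12g44260 and -1.10 for LOC_Os06g09560. A pseudocount of 0.1 FPKM gave -2.82, -1.82 and -1.78 for LOC_Os03g53340, LOC_Os12g44260 and LOC_Os06g09560, one of 1 FPKM gave -1.15, -0.69 and -0.76, and the ratio of means without a pseudocount gave -3.36, -2.27 and -2.02. The order of the falls turned with it: at 1 FPKM LOC_Os01g08860 and LOC_Os02g52150 fell further than LOC_Os03g53340, at -1.66 and -1.49. No difference changed sign. Leaving out 1 library gave -1.87 to -1.53 for LOC_Os03g53340, -1.90 to -1.53 for LOC_Os01g08860, -1.95 to -1.54 for LOC_Os02g52150, -1.13 to -0.88 for LOC_Os12g44260 and -1.25 to -0.97 for LOC_Os06g09560. The counts of 5 and 15 genes without overlap held in each such fit. This was fixed beforehand, since leaving out a library cannot make separate groups overlap, so it says nothing about robustness. Under a limit of 2 on the size of the log2 change in the authors' deposited table, 4 of the 15 heat shock and chaperone genes were left. These were 3 of the 5 genes and 1 of the 10 others, beside 17.0% of all genes listed as lower. With the libraries scaled to a common median of 306 listed genes, all 15 were still lower without overlap, but the falls of the 5 genes were smaller. The differences were then -1.54 for LOC_Os03g53340, -1.43 for LOC_Os01g08860, -1.46 for LOC_Os02g52150, -0.93 for LOC_Os12g44260 and -0.96 for LOC_Os06g09560. The 306 genes had themselves been called as changed. Their mean log2 scaling factor was higher in the knockdown than in wild type by 0.26, so smaller falls were built in. The mean correlation among the 5 genes was 0.57, and 0.36 to 0.65 without 1 library, an alternative added after the data were seen. Of the 15 partner pairs, 6 were chosen again without the filter on low values and 8 with a pseudocount of 0.1 FPKM. Same-numbered libraries did not pair: their deviations correlated at -0.04, -0.53 and -0.43 over the listed genes. With the replicate block the difference was again -1.66 for LOC_Os03g53340, which a design of equal numbers fixes and which says nothing about pairing. Depth is unknown, and values of a few hundredths of an FPKM are limited by rounding.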
